A study of Mus musculus with 6 samples.

Results

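Disome footprints of 9 tubulin genes were described in mouse liver at 3 times of day. The genes were given by Ensembl identifier and comprised 4 beta-tubulin genes (Tubb2a, Tubb4b, Tubb5 and Tubb6) and 5 alpha-tubulin genes (Tuba1a, Tuba1b, Tuba1c, Tuba4a and Tuba8). All 9 were among the 8941 genes listed, and all 9 passed the filter of a mean of 1 RPKM that left 8355 genes for testing. Tubb2a had been selected on its measured disome RPKM in these same libraries, where ZT12 was far below ZT0, and the other 8 were added as its family. The ZT12 values of Tubb2a are therefore a description, and no p-value is given for them.

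The mice were male C57BL/6JRj, an inbred strain, 11 to 12 weeks old, kept for 2 weeks in cycles of 12 h light and 12 h dark and sampled in that cycle. They carried no stated mutation or treatment. Zeitgeber time (ZT) counts the hours since the lights came on. Livers were collected at ZT0, ZT2 and ZT12, and each time is represented by 2 libraries made from pooled lysates of 2 mice. A disome footprint is the piece of messenger RNA shielded from nuclease by a pair of ribosomes stacked against each other, so a gene's disome level depends on how much of its messenger RNA there is, how often it is translated and how often its ribosomes queue. Neither messenger RNA nor single-ribosome footprints were analysed here, and these 3 quantities cannot be told apart. Nor can fewer cells of a type be told apart from less RNA per cell, since whole liver was used.

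Tubulin is the building block of microtubules, the hollow filaments along which cells move vesicles and chromosomes. One alpha and one beta chain form a stable dimer, and mammals encode each chain in a family of genes whose products, the isotypes, differ mostly in their C-terminal tails. In hepatocytes microtubules carry secretory vesicles with lipoproteins and plasma proteins towards the cell surface. Tubulin messenger RNAs are also known for a control that acts on the ribosome: when free dimers are in excess, the factor TTC5 binds the first residues of a tubulin chain as it leaves the ribosome and triggers decay of the messenger RNA being read.

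The promoters of the 4 genes with the highest disome levels are shown because these genes carry most of the signal described below. Sequences were taken from RefSeq (build GRCm38.p6) and run 5′ to 3′ along the gene from 250 bases before to 50 bases after the start that RefSeq's promoter table uses. Promoters of 8 of the 9 genes were used. For 7 of them the window lies at the outer end of the annotated gene, but the Tuba4a window in RefSeq's table lies inside the gene's span of chr1:75214972-75221261, so the sequence before the outer end of Tuba4a was not examined. Capitals mark matches, on either strand, to motifs that were chosen with the results known. These were the cAMP response element (CRE, TGACGTCA), the TATA box (TATAAA), the E-box bound by clock factors (CACGTG), the CCAAT box (CCAAT), the D-box of the PAR bZIP factors (TTACGTAA or TTATGTAA), the CArG box of serum response factor and a minimal heat shock element (GAANNTTC).
Tubb2a, chr13:34077959-34078258, minus strand: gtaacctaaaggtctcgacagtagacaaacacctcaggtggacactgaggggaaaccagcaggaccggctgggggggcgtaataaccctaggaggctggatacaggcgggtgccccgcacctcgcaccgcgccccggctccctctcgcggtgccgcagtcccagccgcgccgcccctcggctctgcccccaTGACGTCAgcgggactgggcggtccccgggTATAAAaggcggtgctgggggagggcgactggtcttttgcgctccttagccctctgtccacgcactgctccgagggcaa
Tubb4b, chr2:25224653-25224952, minus strand: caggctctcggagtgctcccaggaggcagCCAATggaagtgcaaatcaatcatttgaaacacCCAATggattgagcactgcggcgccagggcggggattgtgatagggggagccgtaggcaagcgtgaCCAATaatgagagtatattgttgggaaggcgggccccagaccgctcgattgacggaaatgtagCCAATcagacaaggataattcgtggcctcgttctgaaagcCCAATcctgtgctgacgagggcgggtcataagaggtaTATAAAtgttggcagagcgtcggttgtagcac
Tubb5, chr17:35838252-35838551, minus strand: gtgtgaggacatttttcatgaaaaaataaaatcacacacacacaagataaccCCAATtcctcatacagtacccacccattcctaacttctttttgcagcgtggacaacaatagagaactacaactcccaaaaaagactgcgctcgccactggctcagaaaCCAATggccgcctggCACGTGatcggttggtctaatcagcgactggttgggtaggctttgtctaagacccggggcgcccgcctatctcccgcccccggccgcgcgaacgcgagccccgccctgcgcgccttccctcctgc
Tuba4a, chr1:75219245-75219544, minus strand: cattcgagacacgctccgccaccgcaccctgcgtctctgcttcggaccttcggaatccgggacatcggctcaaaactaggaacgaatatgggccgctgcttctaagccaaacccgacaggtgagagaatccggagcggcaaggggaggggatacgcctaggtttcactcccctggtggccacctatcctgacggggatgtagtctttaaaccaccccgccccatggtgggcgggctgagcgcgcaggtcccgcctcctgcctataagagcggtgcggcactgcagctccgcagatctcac

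The Tubb2a window held 1 CRE at bases -59 to -52 and 1 TATA box at -29 to -24, counted from the start. A CRE was found in 1.79% and a TATAAA in 13.6% of 32851 RefSeq promoter windows of the same length. Tubb5 held an E-box at -75 to -70, and Tuba8, whose window is not printed, held another at -207 to -202, against 7.15% of all windows. The Tubb4b window held 5 CCAAT boxes and 1 TATAAA downstream of its start, at 19 to 24, and Tubb5 held 2 CCAAT boxes, while Tuba1a and Tuba1c held 1 each, against 37.4% of windows with at least 1. The Tuba1b window matched none of these letters, and neither did the Tuba4a window, which is not at the outer end of that gene. None of the 8 windows held a D-box (0.119% and 0.938% of all windows for its 2 forms), a CArG box (1.63%) or the heat shock element (7.86%). A match is a description of the sequence and not evidence of a bound site.

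In RefSeq's annotation Tubb2a spans chr13:34074278-34078008, with its close relative Tubb2b, not analysed here, as the next protein-coding gene, and Tuba1b, Tuba1a and Tuba1c follow each other on chromosome 15 with no other protein-coding gene between. Tubb4b lies on chromosome 2, Tubb5 on 17, Tubb6 on 18, Tuba4a on 1 and Tuba8 on 6. RefSeq also names 2 pseudogenes each of Tubb2a and Tubb4b. Tubulin genes are so alike in sequence that reads can match several of them. How the authors assigned such reads is not given in the sources used here, so the split of reads between close relatives is uncertain.

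Library depth, recovered from the steps of the RPKM values, was 6346387 to 12322651 reads, with a median of 67 to 144 reads per gene. ZT2 replicate 2 listed 250 genes at 0 against 97 in ZT2 replicate 1 and 4 to 52 in the other 4 libraries. All 9 tubulin genes were lower in ZT2 replicate 2 than in ZT2 replicate 1, with a median difference of -0.73 on the log2(RPKM + 1) scale. Over all tested genes 52.2% were lower in that replicate, and the median difference was -0.03. Calls and directions of change that differed when either ZT2 library was left out are given with and without it. At ZT12 7 of the 9 were lower in replicate 2, and at ZT0 2 of the 9 were. Gene identifiers could not be paired with symbols here beyond the 9 tubulin genes, so the liver label and the presence of other cell types were not checked against marker genes.

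Tubb2a (ENSMUSG00000058672) is a beta isotype best known from neurons. RPKM stands for reads per kilobase, with length taken here as coding length, scaled by library. The ZT0 libraries of Tubb2a measured 214 and 237 RPKM, its ZT2 libraries 267 and 197, and its ZT12 libraries 18.8 and 15.5. Both ZT12 libraries lay far below all 4 others, while the ZT0 and ZT2 libraries overlapped. Behind these values stood 2009 and 2437 reads in the ZT0 libraries, 2198 and 2029 in the ZT2 libraries, and 328 and 256 in the ZT12 libraries. The exact 95% Poisson intervals, which cover counting error only, reached from 13.7 to 20.9 RPKM over the ZT12 libraries. The mean was 17.1 ± 2.28 RPKM at ZT12 and 225 ± 16.4 RPKM at ZT0 (SD, n = 2 each), a level 13.1-fold lower at ZT12 and the 2nd largest fall in log2(RPKM + 1) of the 8355 tested genes. By mean RPKM the gene ranked 555 of 8941 at ZT0, 519 at ZT2 and 2932 at ZT12. Between ZT2 and ZT0, the log2 change of Tubb2a was 0.03 (95% interval -0.46 to 0.51, limma adjusted p = 0.96). The gene was not picked on this comparison. Its ZT0 libraries were part of the choice, however, so this p-value is not independent of it.

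**Figure D1:**
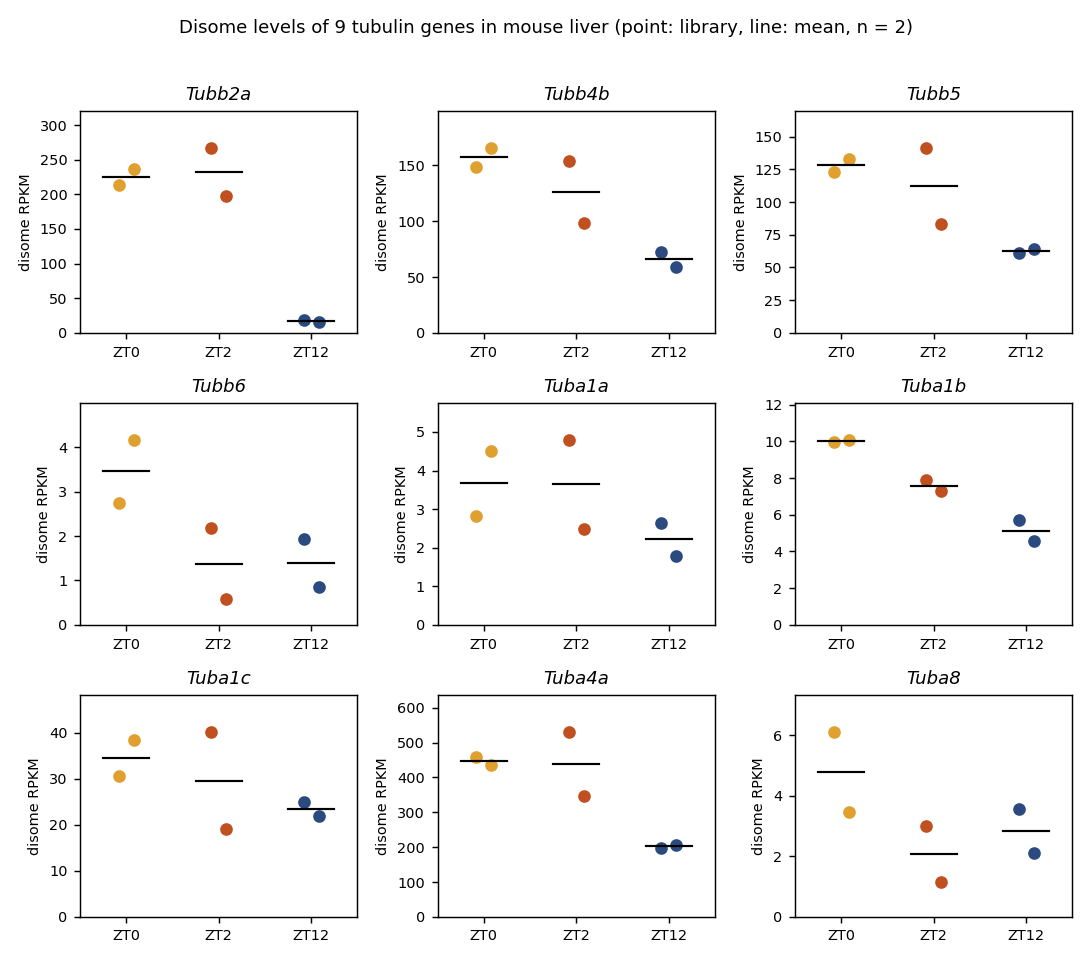
Disome RPKM (linear axis from 0) of each tubulin gene at ZT0, ZT2 and ZT12, with a point per library and a line at the mean of 2. Tubb2a sits between 15.5 and 18.8 RPKM at ZT12 and between 197 and 267 RPKM at the other times.

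Tubb4b (ENSMUSG00000036752), a beta isotype made in most tissues, measured 149 and 165 RPKM in the ZT0 libraries, 154 and 98.5 RPKM in the ZT2 libraries, and 72.5 and 59.4 RPKM in the ZT12 libraries. Its mean of 65.9 ± 9.23 RPKM at ZT12 against 157 ± 11.6 RPKM at ZT0 (SD, n = 2 each) put the log2 change at -1.25 ± 0.24 (SE; limma adjusted p = 0.073). The ZT12 libraries were the lowest of the 6, and the difference did not pass the threshold of 0.05. Tubb5 (ENSMUSG00000001525), a beta isotype of dividing and many other cells, measured 123 and 133 RPKM in the ZT0 libraries, 141 and 83.4 RPKM in the ZT2 libraries, and 61.0 and 64.3 RPKM in the ZT12 libraries. Its ZT12 libraries were again below all others, and set against ZT0 their log2 change was -1.02 ± 0.25 (SE; limma adjusted p = 0.14).

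Tuba4a (ENSMUSG00000026202), an alpha isotype encoded without the C-terminal tyrosine that other alpha chains carry, had the highest level of the family at every time. It measured 459 and 435 RPKM in the ZT0 libraries, 530 and 346 RPKM in the ZT2 libraries, and 198 and 206 RPKM in the ZT12 libraries. Its mean was 202 ± 5.97 RPKM at ZT12 and 447 ± 17.1 RPKM at ZT0 (SD, n = 2 each), and the log2 change between them came to -1.14 ± 0.22 (SE; limma adjusted p = 0.066). The ZT12 libraries were the 2 lowest, with no overlap with either other time. The steps of its values are met by a coding length of 672 bases with 1710 to 2253 reads per library, or by a multiple of both. Since the other alpha genes have 1347 to 1353 bases, its true reads may be higher than these, but its RPKM does not depend on the choice.

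Tuba1c (ENSMUSG00000043091) and Tuba1b (ENSMUSG00000023004), broadly expressed alpha isotypes, had lower levels. Tuba1c measured 30.7 and 38.5 RPKM in the ZT0 libraries, 40.2 and 19.1 RPKM in the ZT2 libraries, and 25.1 and 21.9 RPKM in the ZT12 libraries. Its ZT12 libraries lay below ZT0 but inside the range of ZT2, and the log2 change against ZT0 was -0.53 (95% interval -1.34 to 0.27). Tuba1b measured 9.96 and 10.1 RPKM in the ZT0 libraries, 7.90 and 7.29 RPKM in the ZT2 libraries, and 5.70 and 4.55 RPKM in the ZT12 libraries. Its 3 times did not overlap and stood in that order, with a log2 change of -0.85 (95% interval -1.44 to -0.26) at ZT12 against ZT0 and a limma adjusted p of 0.19.

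The remaining 3 genes rested on few reads. Tuba1a (ENSMUSG00000072235), the alpha isotype typical of neurons, had 26 to 47 reads per library and 1.80 to 4.79 RPKM. Tuba8 (ENSMUSG00000030137), a divergent alpha isotype, had 12 to 63 reads and 1.16 to 6.11 RPKM, and Tubb6 (ENSMUSG00000001473), a divergent beta isotype, had 6 to 43 reads and 0.580 to 4.16 RPKM. The lowest value of Tubb6 came from 6 reads in ZT2 replicate 2 (exact 95% Poisson interval 2.20 to 13.1 reads) beside 18 reads (10.7 to 28.4) in ZT2 replicate 1. For Tubb6 and Tuba1a the ZT12 libraries were below both ZT0 libraries, and for Tuba8 they overlapped. The 95% intervals of the ZT12 against ZT0 change included 0 for all 3, and whether depth or the spread between libraries set their width was not tested.

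The order of levels within the family was the same at ZT0 and ZT2 for the 6 best covered genes and different at ZT12. At ZT0 and ZT2 it ran Tuba4a, Tubb2a, Tubb4b, Tubb5, Tuba1c and Tuba1b. Neighbours in that order did not overlap, except Tubb4b and Tubb5 at ZT2. At ZT12 Tubb2a stood 5th, below Tubb4b, Tubb5 and Tuba1c and above Tuba1b, without overlap with either neighbour, and Tubb4b and Tubb5 overlapped. Tuba8, Tuba1a and Tubb6 held the last 3 places at every time and overlapped their neighbours among themselves.

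Ratios within a library do not depend on how libraries were scaled. Tubb2a stood at 1.43 and 1.43 times Tubb4b at ZT0, 1.73 and 2.00 times at ZT2, and 0.259 and 0.261 times at ZT12. Against Tubb5 the ratio of Tubb2a was 1.74 and 1.78 in the ZT0 libraries, 1.89 and 2.37 in the ZT2 libraries, and 0.307 and 0.242 in the ZT12 libraries. Tubb2a thus stood above both other main beta genes in all 4 ZT0 and ZT2 libraries and below both in the ZT12 libraries. The ratio of Tubb5 to Tubb4b ran from 0.806 to 1.08 over the 6 libraries, and that of Tuba4a to Tubb4b from 2.63 to 3.51. In these 2 ratios the ZT12 libraries overlapped the others. In 2 further ratios without Tubb2a they did not: Tuba4a stood at 7.89 and 9.39 times Tuba1c in the ZT12 libraries, against 11.3 to 18.2 times in the other 4, and at 3.24 and 3.21 times Tubb5, against 3.26 to 4.15 times. For Tuba4a to Tubb5 the margin was small beside the spread of the ZT0 libraries themselves, at 3.74 and 3.26. The ratios with Tubb2a are descriptions without a test, because that gene was picked for its ZT12 level. The ratios without it were not tested either.

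**Figure D2:**
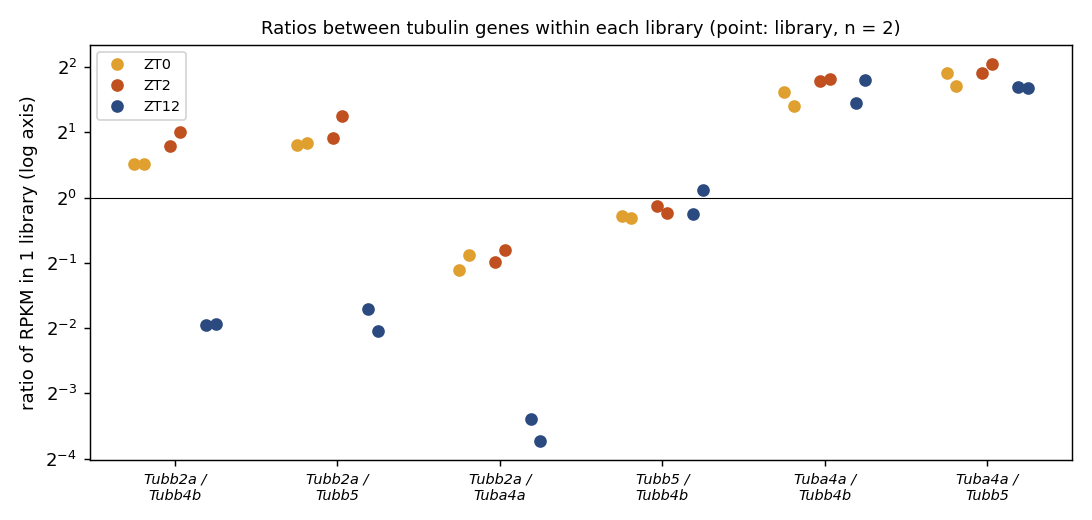
Ratio of RPKM between pairs of tubulin genes within each library (log axis, base 2), coloured by time, with a point per library. Ratios with Tubb2a on top are lower in both ZT12 libraries than in the other 4, and so is that of Tuba4a to Tubb5 by a small margin (3.21 and 3.24 against 3.26 to 4.15), while the ratios of Tubb5 and Tuba4a to Tubb4b overlap between times.

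Tubb2a held 43.8% and 43.9% of the reads on the 4 beta genes in the ZT0 libraries, 47.3% and 52.0% in the ZT2 libraries, and 12.2% and 11.1% in the ZT12 libraries. The exact 95% Clopper-Pearson intervals, which take reads as independent and cover counting error only, were 9.85% to 13.5% over the ZT12 libraries and 42.3% to 53.5% over the others. These shares describe the gene that was picked for its low ZT12 level and are no test of it. The share of summed beta RPKM on Tubb4b was 44.7% ± 3.24 at ZT12 against 30.6% ± 0.097 at ZT0, and that on Tubb5 was 42.7% ± 4.46 against 24.9% ± 0.34 (SD, n = 2 each). With the share of Tubb2a low, that of the other beta genes together is bound to be higher. The mean RPKM of Tubb4b and Tubb5 was itself lower at ZT12 (65.9 and 62.7) than at ZT0 (157 and 128). Among the alpha genes Tuba4a held 84.2% and 87.1% of summed RPKM in the ZT12 libraries, below the 88.5% to 92.0% of the other 4 libraries, and it remained the largest share in every library.

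Summed over the 4 beta genes, disome RPKM came to 488 and 540 in the ZT0 libraries, 564 and 380 in the ZT2 libraries, and 154 and 140 in the ZT12 libraries. The 5 alpha genes summed to 509 and 491 RPKM in the ZT0 libraries, 586 and 376 RPKM in the ZT2 libraries, and 235 and 237 RPKM in the ZT12 libraries. Both sums were lowest in the ZT12 libraries, and the beta sum was further below ZT0 than the alpha sum. The beta sum was 0.960 and 1.10 times the alpha sum at ZT0, 0.963 and 1.01 times at ZT2, and 0.657 and 0.592 times at ZT12. Without Tubb2a the ratio of beta to alpha was 0.540 and 0.616 in the ZT0 libraries, 0.507 and 0.485 in the ZT2 libraries, and 0.577 and 0.526 in the ZT12 libraries. The ZT12 libraries lay inside the range of the others once Tubb2a was left out.

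**Figure D3:**
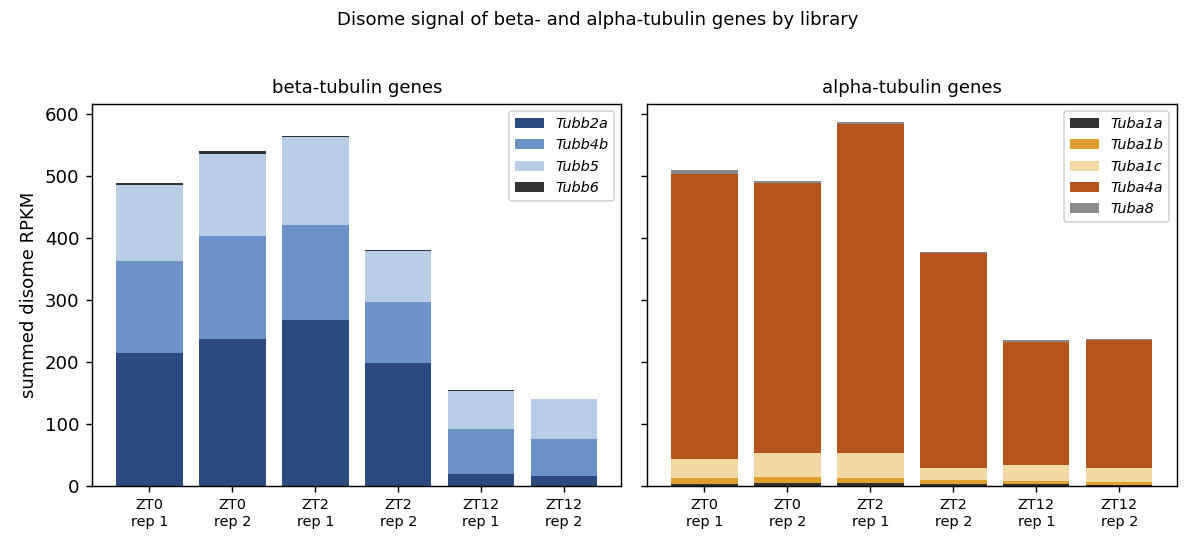
Summed disome RPKM of the beta-tubulin genes (left) and the alpha-tubulin genes (right), with a bar per library split by gene. Beta bars reach 140 and 154 RPKM at ZT12 and 380 to 564 RPKM at the other times, and Tubb2a makes up little of the ZT12 bars.

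For ZT12 against ZT0, none of the 8 genes other than Tubb2a passed the limma test (0 of 8). Of the 8355 tested genes 79 were called in either direction, and 0.551% were called lower. Adjusted p-values of the 8 ran from 0.066 to 0.57. With limma's unadjusted p held to 0.05, 4 of the 8 were counted, all lower at ZT12 (Tubb4b, Tubb5, Tuba1b and Tuba4a), against 8.34% of tested genes. Libraries at ZT12 were below those at ZT0 without overlap for 7 of the 8, against 27.8% of tested genes. All 8 had a log2 change below 0, against 50.8% of tested genes, with a median of -0.89 beside -0.01 over all genes. The shared spread of this test includes the ZT2 libraries. On the 4 libraries of ZT0 and ZT12 alone, Tubb4b, Tubb5 and Tuba4a passed (3 of 8, limma adjusted p = 0.017, 0.022 and 0.013), where 2.08% of genes were called lower; over all alternatives their adjusted p-values ran from 0.0084 to 0.54, 0.022 to 0.73 and 0.0092 to 0.49. The same 3 passed with limma voom on the recovered reads, which called 2.13% of genes lower, and without either ZT2 library (2.11% and 2.09%). None of the 8 passed when any 1 ZT0 or ZT12 library was left out (0 of 8); the share of genes called lower was then 0.0359% and 0.0239% without ZT0 replicates 1 and 2, and 0.0838% and 0.0479% without ZT12 replicates 1 and 2.

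For ZT12 against ZT2, which shares the ZT12 libraries with the comparison above, none of the 8 passed (0 of 8). Of the 8355 tested genes 172 were called in either direction, and 0.993% were called lower. Limma counted 3 of the 8 at an unadjusted p of 0.05, all lower (Tubb4b, Tubb5 and Tuba4a), against 9.17% of genes lower. Limma voom called 2 of the 8 lower, Tubb4b and Tuba4a, against 2.38% of genes. Tuba4a came nearest, at -1.08 ± 0.22 (log2 change, SE; limma adjusted p = 0.058). Tubb2a had 17.1 ± 2.28 RPKM at ZT12 and 232 ± 49.2 RPKM at ZT2 (SD, n = 2 each), a level 13.5-fold lower at ZT12. Libraries did not overlap for 4 of the 8, all lower at ZT12, against 22.3% of genes, and 6 of the 8 had a log2 change below 0 against 47.7%. The median log2 change was -0.49 beside 0.03 over all genes. Tubb6 and Tuba8 had changes of 0.06 and 0.36, with 95% intervals that included 0. Leaving out ZT2 replicate 2 turned these to -0.45 and -0.089. Leaving out ZT2 replicate 1 gave 0.56 and 0.81, and the change of Tuba1c went from -0.23 to 0.28. Without ZT2 replicate 2, Tubb4b, Tubb5 and Tuba4a passed (3 of 8, 2.33% of genes), and without ZT2 replicate 1 only Tuba4a did (1 of 8, 2.05%). None passed on the 4 libraries compared or without either ZT0 library (0.227% of genes each), nor without ZT12 replicate 1 (0.311%) or 2 (0.0479%). With the filter at 5 RPKM, Tubb6, Tuba1a and Tuba8 were no longer tested. Among the 8, Tuba4a alone then passed in both ZT12 comparisons, against 1.42% of genes called lower for ZT0 and 2% for ZT2.

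For ZT2 against ZT0 none of the 9 genes passed (0 of 9), where 0.0239% of all genes were called, none of them lower (0%). This comparison shares the ZT0 libraries on which Tubb2a was picked. Limma voom also called 0 of 9, where 9 of 8355 genes were called in either direction and 0.0479% were called lower. None of the 9 was lower with an unadjusted limma p under 0.05, against 8.27% of genes, and none was higher. With all libraries, 8 of the 9 had a log2 change below 0, against 53.6%. Without ZT2 replicate 2, the changes of Tubb5, Tuba1a, Tuba1c and Tuba4a were above 0 (0.14, 0.33, 0.22 and 0.25). That of Tubb2a was then 0.25, while those of Tubb4b, Tubb6, Tuba1b and Tuba8 stayed below 0. Without ZT2 replicate 1 every change was below 0, that of Tubb2a at -0.19. Without ZT2 replicate 1 the share of genes called lower was 2.56%, and without ZT2 replicate 2 it was 0.012%, with 0 of 9 tubulin genes either way. Log2 changes ran from -0.97 for Tubb6 to 0.03 for Tubb2a. The 95% interval was -0.57 to 0.45 for Tuba4a, -0.92 to 0.22 for Tubb4b and -0.83 to 0.36 for Tubb5. Libraries did not overlap for Tubb6, Tuba1b and Tuba8, all lower at ZT2 (3 of 9, against 24.9% of genes).

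**Figure D4:**
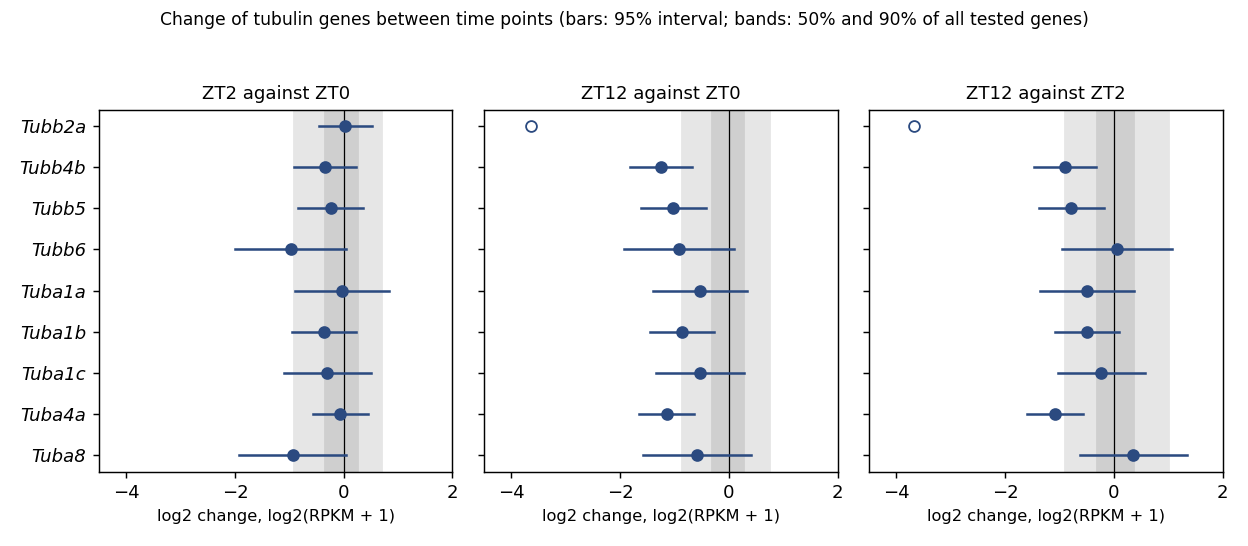
Log2 change on the log2(RPKM + 1) scale of each tubulin gene in 3 comparisons, with 95% limma intervals; open points mark Tubb2a where it was picked for its ZT12 level and no interval is drawn. Grey bands hold 50% and 90% of all 8355 tested genes, and at ZT12 against ZT0 all 9 points lie left of 0.

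The genes whose course was most like that of Tubb2a were sought among all tested genes by Euclidean distance over the 6 libraries, on log2(RPKM + 1) centred on each gene's mean. The nearest was ENSMUSG00000055116 at a distance of 0.86, with RPKM of 11.5 and 12.0 in the ZT0 libraries, 14.6 and 13.7 in the ZT2 libraries, and 0.85 and 0.69 in the ZT12 libraries. The next was ENSMUSG00000022512 at 0.97, with RPKM of 190 and 218 in the ZT0 libraries, 448 and 265 in the ZT2 libraries, and 35.5 and 21.9 in the ZT12 libraries. Both were lower in the ZT12 libraries than in the other 4, which follows from choosing them for nearness to Tubb2a and is no separate result. None of the 5 nearest genes, which reached a distance of 1.31, was another of the tubulin genes described here. Whether any is a different tubulin gene could not be checked without symbols. This distance is not scaled for the size of a change, so genes with the same course but a smaller change lie further away. Among the 8355 tested genes Tuba4a took place 131, Tubb4b place 151 and Tubb5 place 221, at distances of 2.96, 3.01 and 3.21.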

How the data were processed

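The authors deposited 1 table per library with an Ensembl identifier and an RPKM value for each of 8941 genes, without header or symbols. The submitters' processing notes name edgeR, StringTie, STAR, Bowtie2 2.3.0, cutadapt and CASAVA 1.82, and the builds mm10 and GRCm38.p2, without roles. How genes were filtered and reads with several matches were counted is not given in the sources used here. Per the labels' protocols, RNase I (650 U, 45 min) was applied to lysates made with cycloheximide.

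Values of a gene in different libraries were ratios of whole numbers times 1 constant per library, to a relative tolerance of 5e-13. Whole reads came out for 100% of genes, after correction through length in 74, and reads sharing a factor may remain too low. Constants were 1.00 to 1.01 times each library's upper quartile of reads, and 95.16% of lengths were multiples of 3. The unit of length was set on the assumption that coding lengths are multiples of 3. That share is therefore no test of the assumption, and lengths are taken as coding lengths.

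The main test was limma 3.58.1 (R 4.3.3) on log2(RPKM + 1) over 8355 genes whose mean reached 1 RPKM, with all 6 libraries in 1 fit, a variance trend, no covariate and 3 residual degrees of freedom. Benjamini-Hochberg adjustment ran over every tested gene, with a threshold of 0.05. The log2(RPKM + 1) scale understates changes of low genes. Alternatives were the pseudocount, filter, scaling, variance prior, libraries used, a replicate block, voom and leaving out each library. The fit was tested on simulated data. The tubulin genes, lists, motifs and tests were chosen with earlier results of these data known. The rule for named genes took all 9 members and the genes nearest to Tubb2a, of which 2 are printed because no symbols are paired with them. Lists of other tubulins, tubulin folding, tubulin messenger RNA control, tubulin modification, microtubule proteins, motors, other cytoskeleton, clock, heat shock and cell type markers were planned but not used, since RefSeq's gene table holds Ensembl identifiers for 0 of 49997 genes. The titles only number the replicates, and whether these are separate pools of mice or separate preparations does not follow from them. The p-values therefore measure the spread between libraries, whatever its source.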

Additional observations from a re-analysis of the deposited data

How the results depend on the processing

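There were 2 libraries per time point, with uneven replicates at ZT2. Calls among the 8 tubulin genes other than Tubb2a varied with the libraries used, the filter and the use of voom. The filter at 5 RPKM left Tubb6, Tuba1a and Tuba8 untested. All 159 alternative values for ZT12 against ZT0 were below 0. They include Tubb2a, which was picked for its low ZT12 level. Settings that altered only the filter, the variance estimate or the block, or left out ZT2 libraries, repeated the main log2 change exactly. Their signs could not differ, so the number is no measure of how stable the direction is. Of 477 alternative changes in the 3 comparisons, 20 gained a call, 14 changed sign and 2 moved. For ZT12 against ZT0 the count of 0 became 1 with a filter at 5 RPKM, where fewer genes were tested (1.42% called lower), 3 on the 4 libraries compared and 3 with voom, and leaving out 1 library gave 0 to 3. For ZT12 against ZT2 it became 1 with that filter (2%) and 2 with voom, and leaving out 1 library gave 0 to 3. The cause was not tested further. For ZT2 against ZT0 it stayed 0 in every alternative run, leave-one-out fits included. Where 1 library remained at a time, its variance was taken from the remaining times. The log2 change of Tubb2a was -3.38 against ZT0 and -3.41 against ZT2 with a pseudocount of 5, which shrinks low levels, against -3.64 and -3.67, and leaving out 1 library gave -3.77 to -3.52 and -3.89 to -3.45. The alpha sum at ZT12 of 236 RPKM became 249 with equal summed RPKM and 247 with total reads. Equal summed RPKM moved the median change of all genes to 0.17 for ZT12 against ZT2 and -0.11 for ZT2 against ZT0, and total reads moved the first to 0.12.

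The 14 sign changes were all in uncalled values. For ZT12 against ZT2, Tubb6 had -0.14 with quantile normalization and -0.45 to 0.56 when 1 library was left out, Tuba1c had -0.75 to 0.28 and Tuba8 -0.089 to 0.81. For ZT2 against ZT0, Tubb2a had -0.055 with equal summed RPKM and -0.19 to 0.25 when 1 library was left out, Tuba1a had 0.0097 with quantile normalization and -0.40 to 0.33, Tubb5 had -0.61 to 0.14, Tuba1c -0.82 to 0.22 and Tuba4a -0.37 to 0.25. Counts of all called genes for ZT12 against ZT0 were 79 in the fit reported, 32 without the variance trend, 124 with the filter at 5 RPKM, 282 on the 4 libraries compared and 283 with voom. For ZT12 against ZT2 they were 172, 80, 203, 39 and 356, and for ZT2 against ZT0 they were 2, 1, 3, 1 and 9. Leaving out 1 library gave 3 to 283, 5 to 597 and 0 to 248. Replicate numbers showed no pairing over all tested genes: the correlations between deviations of libraries with equal numbers were -0.076, -0.019 and 0.018. These values cannot exclude a shared pool or preparation that acted on few genes. With the replicate block the tubulin count stayed 0 in each comparison, and the counts of all genes were 51, 113 and 2. The planned quasi-likelihood count test was not run, because the deposited values are RPKM. Tubb6, Tuba1a and Tuba8 rested on 6 to 63 reads per library, so their values carry the largest relative counting error of the 9 genes.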
